A study of Homo sapiens with 6 samples.

Results

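HMGA2 and RPSAP52 are a pair of overlapping genes on human chromosome 12, and their RNA was followed here in iron-treated ARPE-19 cells. They were chosen by symbol, as every row of the array table annotated HMGA2 or RPSAP52, and were selected on earlier results of the same contrast, the fall of both signals with FAC. Each gene had 1 named probe, so the pair makes up 2 of 14884 genes with a named probe. ARPE-19 is a human cell line that grew from the retinal pigment epithelium, the cell layer that feeds and supports the photoreceptors. In the tested group, 3 cultures received FAC at 250 µM for 2 days; the labels do not spell FAC out, and the abbreviation commonly stands for ferric ammonium citrate, an iron salt. In the control group, 3 cultures received vehicle for the same 2 days and are called untreated. All cultures had first been kept at 1% serum for 4 weeks after reaching confluence, and both groups were then held without serum. The submitters call the 3 cultures of each group biological replicates, and 1 array was run for each.

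HMGA2 encodes a small chromatin protein that binds AT-rich DNA through its AT hooks and bends it, which helps other factors to assemble at promoters and enhancers. It is abundant in the embryo, low in most adult tissues and high again in many tumours and cultured cells. Its messenger RNA is a textbook target of the let-7 microRNAs, which LIN28A and LIN28B hold back, and TGF-beta signalling through SMAD proteins can raise it. RPSAP52 is a transcribed pseudogene of RPSA, a ribosomal protein gene, and is read from the opposite strand of the HMGA2 locus. In other human cells its RNA has been reported to bind IGF2BP2, an RNA-binding protein, and to act on the balance of LIN28B and let-7.

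The let-7 sequences are shown because HMGA2 is read by the whole family through 1 shared seed. RefSeq (GRCh38.p14) lists 12 human genes of the family, with 9 different mature sequences from the 5′ arm. They are written 5′ to 3′, with the seed, bases 2 to 8, in capitals.
let-7a: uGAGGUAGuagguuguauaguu
let-7c: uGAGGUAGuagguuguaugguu
let-7d: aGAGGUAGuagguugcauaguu
let-7e: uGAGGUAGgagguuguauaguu
let-7f: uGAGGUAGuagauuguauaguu
let-7g: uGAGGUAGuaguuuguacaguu
let-7i: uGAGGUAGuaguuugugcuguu
miR-98: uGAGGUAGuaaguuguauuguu
These 8, of which an array probe read at least 1 gene each, share the seed GAGGUAG letter for letter, as does let-7b, which is not analysed here. Over the whole 22 bases they differ from let-7a at 1 to 4 positions, with let-7i the farthest at 4.

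Both members were lower in the FAC-treated cells. HMGA2 measured 8.69, 8.80 and 8.64 on the log2 intensity scale in FAC replicates 1, 2 and 3, against 9.16, 9.73 and 9.27 in untreated replicates 1, 2 and 3. The groups did not overlap, and untreated replicate 2 stood highest of the 6 arrays. RPSAP52 measured 7.27, 7.67 and 7.59 in the 3 FAC cultures, against 8.12, 8.63 and 8.14 in the 3 untreated ones. Its groups did not overlap either, the same untreated replicate 2 was highest, and FAC replicate 1 was lowest. The HMGA2 level averaged 8.71 ± 0.08 in FAC-treated and 9.39 ± 0.30 in untreated cells (SD, n = 3 each), a log2 fold change of -0.68 ± 0.14 (SE), or 1.60-fold lower. The RPSAP52 level averaged 7.51 ± 0.21 in FAC-treated and 8.30 ± 0.29 in untreated cells, a log2 fold change of -0.79 ± 0.15, or 1.73-fold lower. SEs throughout are those of a limma fit across all genes. No test is given for either gene, because both were selected on this contrast. For scale, in 13.0% of all genes the 3 FAC arrays lay below the 3 untreated ones, and 0.228% of genes had a log2 fold change as low as that of HMGA2 or lower, against 0.107% for RPSAP52. A bulk RNA measurement cannot tell fewer cells carrying these transcripts from less RNA per cell.

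**Figure D1:**
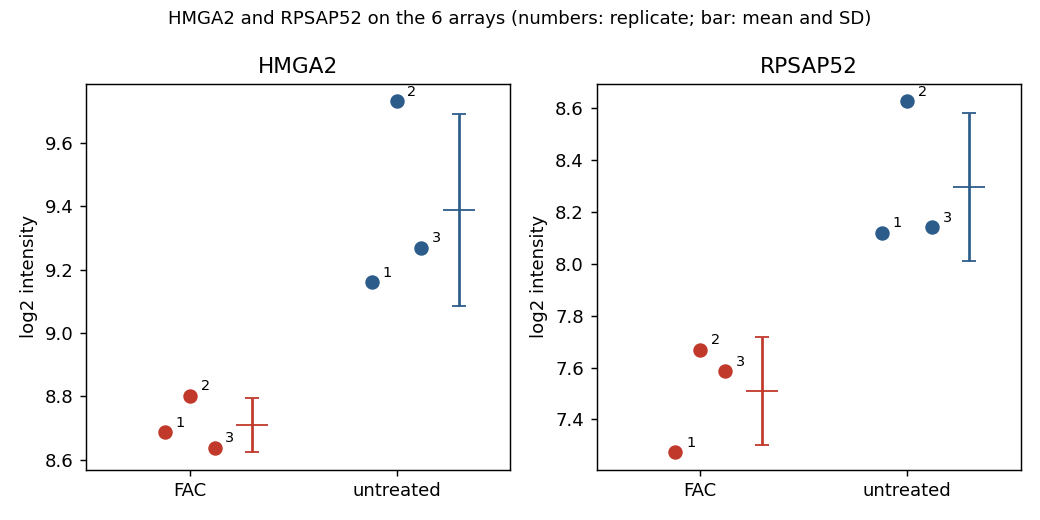
Log2 intensity of HMGA2 (left) and RPSAP52 (right) in 3 FAC-treated and 3 untreated ARPE-19 cultures; each point is an array numbered by its replicate, and the bar beside it gives the group mean with its SD. For both genes all FAC points lie below all untreated points, and untreated replicate 2 is the highest, at 9.73 for HMGA2 and 8.63 for RPSAP52.

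The size of both falls rested in part on untreated replicate 2. Without that array the log2 fold change was -0.51 for HMGA2 and -0.62 for RPSAP52, against -0.68 and -0.79 with it. Leaving out any other array gave values between -0.79 and -0.64 for HMGA2 and between -0.88 and -0.67 for RPSAP52. The sign was negative in every case.

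The 2 falls were close in size. The log2 signal of RPSAP52 minus that of HMGA2 was -1.41, -1.13 and -1.05 in FAC replicates 1, 2 and 3, against -1.04, -1.10 and -1.13 in untreated replicates 1, 2 and 3. These values compare 2 different probes, so only their change between groups can be read and not their size. That change was -0.11 ± 0.11 (SE from the 2 group SDs), no larger than its own error. FAC replicate 1 had the lowest value, and without it the change was -0.0034. Leaving out any other array gave changes between -0.18 (without FAC replicate 3) and -0.08 (without untreated replicate 1). RPSAP52 overlaps HMGA2 in the RefSeq gene table (GRCh38.p14). The sources used here do not say which exons each probe reads or whether the labelled product keeps strand, so a shared signal between the 2 probes was not tested.

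The pair also varied together among the untreated cultures, and only in part among the FAC ones. The group difference does not enter this measure, which was chosen after the values were seen. Relative to the mean of its own group, HMGA2 deviated by -0.02, 0.09 and -0.07 in FAC replicates 1, 2 and 3, and by -0.23, 0.34 and -0.12 in the untreated ones. RPSAP52 deviated by -0.24, 0.16 and 0.08 in the FAC cultures and by -0.18, 0.33 and -0.15 in the untreated ones. In the untreated group the 2 genes kept the same pattern, high in replicate 2 and low in replicates 1 and 3. In the FAC group both were highest in replicate 2, while replicates 1 and 3 fell in a different order for the 2 genes. The root mean square difference between the 2 sets of deviations was 0.11, which placed RPSAP52 at rank 350 of 14883 genes by closeness to HMGA2, and HMGA2 at rank 81 by closeness to RPSAP52. This likeness is a description over 6 arrays, and all genes share those arrays.

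Untreated replicate 2 lay 0.52 above the mean of the other 2 untreated arrays for HMGA2 and 0.50 for RPSAP52. On that array 51 of all genes had a gap at least as large as that of HMGA2, and 61 one at least as large as that of RPSAP52, both counts including the gene itself. Over all genes the root mean square of the same gap was 0.144 for untreated replicate 2 and between 0.121 and 0.148 over the 6 arrays. Markers of retinal pigment epithelium were mixed on it: of 13 measured, 7 were lowest, 3 highest and 3 in between among the untreated arrays. The widest gaps were those of the pigment genes TYR and TYRP1. TYR, the tyrosinase that starts melanin synthesis, measured 7.43, 7.67 and 7.49 in FAC replicates 1, 2 and 3, against 7.97, 6.88 and 7.86 in untreated replicates 1, 2 and 3. TYRP1, a melanosome protein, measured 9.87, 9.93 and 9.82 in the FAC cultures, against 10.45, 9.48 and 10.28 in the untreated ones. Both were thus lowest in the culture where HMGA2 and RPSAP52 were highest. PMEL, another pigment gene, was highest there among the untreated cultures (7.13, 7.17 and 6.90 in replicates 1, 2 and 3), and MITF lay between the others (9.05, 8.94 and 8.93). TYR and TYRP1 were picked out of the marker list after their values were seen. Their part in the result for the pair was not tested.

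**Figure D2:**
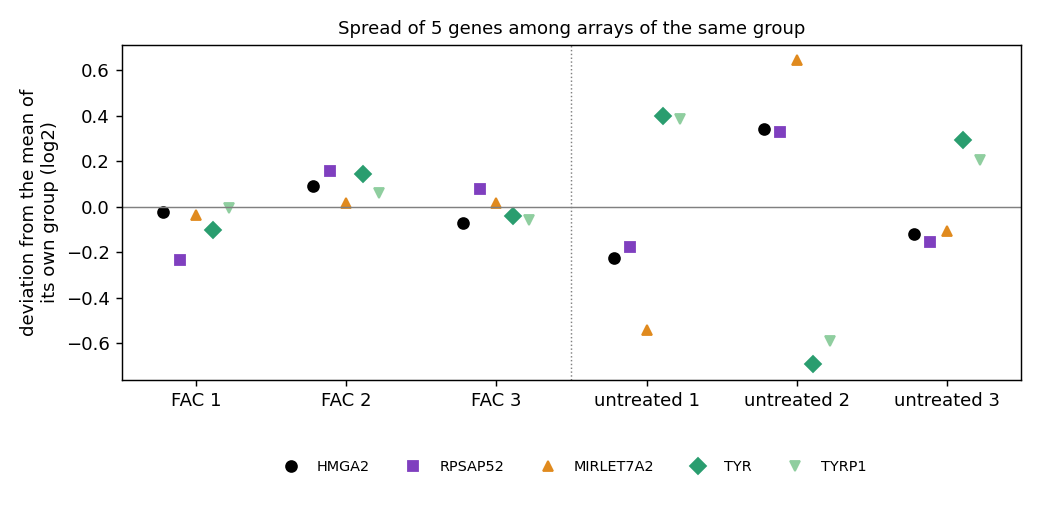
Deviation of each array from the mean of its own group, in log2 units, for HMGA2, RPSAP52, the let-7a-2 hairpin gene MIRLET7A2 and the pigment genes TYR and TYRP1, with FAC arrays on the left and untreated arrays on the right. On untreated replicate 2, HMGA2 (0.34), RPSAP52 (0.33) and MIRLET7A2 lie above 0, and TYR and TYRP1 lie below it. MIRLET7A2, TYR and TYRP1 were picked from longer lists. On that array the 11 measured let-7 hairpin genes had a mean deviation of -0.02. Of 13 measured pigment epithelium markers, 7 were lowest and 3 highest there among the untreated arrays.

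The identity of the cells and the arrays' overall quality can be given briefly. Array medians over all 53617 probes lay between 6.03 and 6.09, and pairs of arrays correlated with r between 0.991 and 0.995. Over all genes 3.73% passed the limma test, 1.88% higher and 1.85% lower with FAC, and 17.2% had an unadjusted p under 0.05, 8.14% higher and 9.06% lower. The counts at an unadjusted p given for each list here and below are to be read against these shares. Of 15 markers of retinal pigment epithelium, 13 were measured, none passed the test in either direction (limma; 1 higher and 1 lower at an unadjusted p under 0.05), and their median log2 fold change was -0.04. Lineage factor OTX2 was among the bright ones, and its 3 FAC values overlapped the 3 untreated ones, while RPE65 and BEST1, which define the mature cell, lay among the dimmest 33.3% of genes by mean level. The smallest p-values in that list were those of the retinoid carrier RLBP1 (0.31 ± 0.08, adjusted p = 0.0843) and the pigment cell factor MITF (-0.15 ± 0.06, adjusted p = 0.215). The log2 values of the 13 markers summed to between 101.26 and 101.94 in the FAC cultures. In the untreated ones the sum lay between 100.03 and 102.97, lowest in untreated replicate 2. For blood and endothelium 3 markers were measured, none passed (none at an unadjusted p under 0.05), and all 3 lay among the dimmest genes. PECAM1 (0.16 ± 0.11, adjusted p = 0.524) and CD14 (0.04 ± 0.06, adjusted p = 0.786) came closest. Of 4 measured markers of fibroblasts and muscle none passed and 2 were lower at an unadjusted p under 0.05 (9.06% of all genes), DCN (-0.38 ± 0.09, adjusted p = 0.0539) and TAGLN (-0.26 ± 0.07, adjusted p = 0.113). The log2 values of the 4 markers summed to between 28.2 and 28.7 in the FAC cultures and between 28.6 and 29.5 in the untreated ones. The part of these 4 markers in the result for the pair was not tested. For neural cells and photoreceptors 7 markers were measured and none passed (2 higher and 1 lower at an unadjusted p under 0.05), with SAG at 0.27 ± 0.08 and SYT1 at -0.21 ± 0.07. The array table carries no detection calls, so none of these markers can be called absent.

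The neighbours of the pair on chromosome 12 were read to see whether the rest of the region moved with it. In the chromosome order of RefSeq, the 9 nearest other genes with a named probe were LINC02389, WIF1, LEMD3 and MSRB3 on one side and TMBIM4, IRAK3, HELB, GRIP1 and CAND1 on the other. None passed the limma test in either direction, none had an unadjusted p under 0.05, and their log2 fold changes lay between -0.13 and 0.12 with a median of -0.02. The 2 nearest were MSRB3, a methionine sulfoxide reductase gene next to RPSAP52, at -0.02 ± 0.07 (adjusted p = 0.933), and TMBIM4 next to HMGA2, at 0.07 ± 0.06 (adjusted p = 0.617). MSRB3 averaged 8.52 ± 0.06 in FAC-treated and 8.54 ± 0.10 in untreated cells, and TMBIM4 averaged 8.59 ± 0.02 in FAC-treated and 8.52 ± 0.07 in untreated cells. The lowest of the 9 was LEMD3, an inner nuclear membrane protein that binds receptor SMADs, at -0.13 ± 0.10 (adjusted p = 0.548). The Wnt inhibitor gene WIF1, the Toll-like receptor brake IRAK3, the helicase gene HELB and LINC02389 lay among the dimmest genes, where a change could be missed. HMGA2-AS1 and HMGA2-AS2, RNA genes that also overlap HMGA2, are not analysed here.

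**Figure D3:**
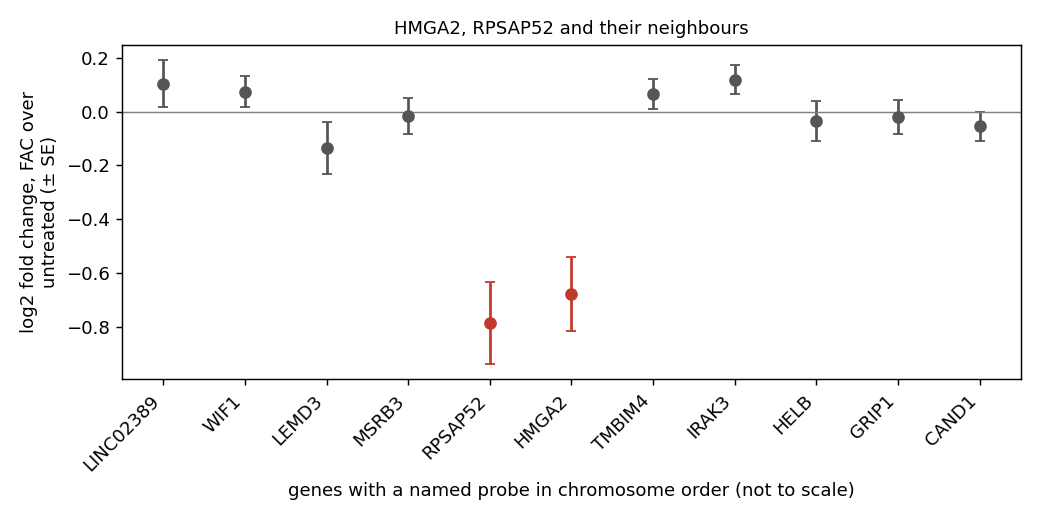
Log2 fold change of FAC over untreated, with its SE, for HMGA2, RPSAP52 and the 9 nearest genes with a named probe, in chromosome order and not to scale. RPSAP52 (-0.79) and HMGA2 (-0.68) lie low, and the 9 neighbours lie between -0.13 and 0.12.

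HMGA1, the paralogue of HMGA2 with the same kind of AT hooks, had 2 probes. Its brighter probe measured 10.03, 10.05 and 10.14 in FAC replicates 1, 2 and 3, against 10.22, 10.26 and 10.09 in untreated replicates 1, 2 and 3. The groups overlapped there, and the log2 fold change was -0.12 ± 0.06 (adjusted p = 0.420). The other probe measured 9.40, 9.40 and 9.52 in the FAC cultures, against 9.54, 9.73 and 9.53 in the untreated ones, a mean difference of -0.16 with a gap of only 0.0186 between the groups. Untreated replicate 2 was the highest array on both HMGA1 probes, as for HMGA2. Of 10 measured HMG proteins other than HMGA2, 1 rose and none fell, and the counts at an unadjusted p under 0.05 were the same. The riser was HMGB2, a DNA-bending protein of dividing cells, which averaged 8.47 ± 0.02 in FAC-treated and 8.15 ± 0.05 in untreated cells (0.32 ± 0.05, adjusted p = 0.0219). The 10 HMG genes had a median log2 fold change of 0.09, beside -0.0041 over all genes, of which 1.88% rose and 1.85% fell. RPSA itself is not analysed here, and RPSAP9, the other pseudogene of the family with a named probe, measured 5.13 ± 0.13 in FAC-treated and 5.34 ± 0.26 in untreated cells, among the dimmest genes (-0.20 ± 0.13, adjusted p = 0.482).

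The let-7 genes were read as hairpin genes. The sources used here do not say which part of a hairpin each probe reads, so the values below cannot be taken as levels of the mature microRNA. None of 11 measured hairpin genes passed the limma test, while 3 were lower and none higher at an unadjusted p under 0.05, a threshold that 9.06% of all genes passed downwards and 8.14% upwards. Their median log2 fold change was -0.17, and 5 of the 11, MIRLET7A2 included, lay among the dimmest genes. The lowest log2 fold change belonged to MIRLET7A2, with 5.73, 5.78 and 5.78 in FAC replicates 1, 2 and 3, against 6.15, 7.34 and 6.59 in untreated replicates 1, 2 and 3. The groups did not overlap, and untreated replicate 2 was again the highest array. Its log2 fold change was -0.93 ± 0.25 (adjusted p = 0.0995), which became -0.60 (adjusted p = 0.0556) without untreated replicate 2 and passed without untreated replicate 1 (-1.20, adjusted p = 0.0341) and with a trended and robust prior (adjusted p = 0.0274). Over all its alternatives the adjusted p lay between 0.0274 and 0.254. MIR100HG, the long host RNA of that hairpin, measured -0.03 ± 0.06 (adjusted p = 0.866).

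MIRLET7I, which lies on chromosome 12 like HMGA2, measured 6.71, 6.83 and 6.80 in FAC replicates 1, 2 and 3, against 7.03, 7.06 and 7.36 in untreated replicates 1, 2 and 3. Here too the groups did not overlap, but the highest array was untreated replicate 3. Its log2 fold change was -0.37 ± 0.09 (adjusted p = 0.0777). MIRLET7E was the remaining one below an unadjusted 0.05 (-0.17 ± 0.07, adjusted p = 0.275). The hairpins MIRLET7A1 (-0.20 ± 0.12), MIRLET7G (-0.32 ± 0.14) and MIRLET7F1 (-0.41 ± 0.30) had wide errors, with adjusted p between 0.302 and 0.558. MIRLET7A3 (0.06 ± 0.08), MIRLET7C (0.15 ± 0.10), MIRLET7D (-0.0031 ± 0.12), MIRLET7F2 (-0.04 ± 0.09) and MIR98 (-0.02 ± 0.05) had adjusted p between 0.496 and 0.992. MIR99AHG, the host RNA of MIRLET7C, measured -0.0081 ± 0.09 (adjusted p = 0.972). The 3 genes that yield the identical mature let-7a, MIRLET7A1, MIRLET7A2 and MIRLET7A3, had log2 fold changes of -0.20, -0.93 and 0.06. None of them passed, MIRLET7A1 and MIRLET7A2 lay among the dimmest genes, and a difference between the 3 was not tested.

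The 2 hairpins with the smallest p-values are printed with the mature let-7 in capitals, to show what such a probe can read besides it. They are RefSeq sequences of GRCh38.p14, 5′ to 3′, from chr11:122146522-122146593 on the minus strand and from chr12:62603686-62603769 on the plus strand.
MIRLET7A2: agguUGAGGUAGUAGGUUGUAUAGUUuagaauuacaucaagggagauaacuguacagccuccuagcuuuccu
MIRLET7I: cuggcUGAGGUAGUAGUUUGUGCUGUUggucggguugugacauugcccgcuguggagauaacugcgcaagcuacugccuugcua
The mature part makes up bases 5 to 26 of 72 in the first and bases 6 to 27 of 84 in the other.

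The factors that limit or mature let-7 gave no call. LIN28B measured 4.41, 4.39 and 4.64 in FAC replicates 1, 2 and 3, against 4.40, 4.32 and 4.42 in untreated replicates 1, 2 and 3 (0.10 ± 0.08, adjusted p = 0.578). LIN28A averaged 4.87 ± 0.09 in FAC-treated and 4.83 ± 0.13 in untreated cells (0.04 ± 0.08, adjusted p = 0.875). The groups overlapped for both, and both lay among the dimmest genes, so a change at such levels could be missed. Of 7 measured genes of this list none passed the limma test, and 2 were lower at an unadjusted p under 0.05, against 9.06% of all genes. These were DGCR8, the partner of Drosha in cutting primary microRNAs (-0.19 ± 0.06, adjusted p = 0.167), and DIS3L2, the exonuclease that degrades uridylated let-7 precursors (-0.13 ± 0.05, adjusted p = 0.260).

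Other let-7 targets moved in both directions. Of 23 measured targets besides HMGA2, 2 rose and 3 fell, with a median log2 fold change of 0.05, against 1.88% higher and 1.85% lower among all genes. At an unadjusted p under 0.05, 6 were higher and 6 lower (8.14% and 9.06% of all genes). The cyclin gene CCND2 averaged 6.65 ± 0.11 in FAC-treated and 6.30 ± 0.02 in untreated cells (0.35 ± 0.07, adjusted p = 0.0294). The insulin receptor gene INSR rose too (0.34 ± 0.07, adjusted p = 0.0488). Among those that fell, the growth regulator MYC averaged 9.16 ± 0.08 in FAC-treated and 9.61 ± 0.12 in untreated cells (-0.46 ± 0.08, adjusted p = 0.0221). IRS2, an adaptor of the insulin and IGF1 receptors (-0.38 ± 0.06, adjusted p = 0.0128), and IGF1R, the IGF1 receptor itself (-0.29 ± 0.05, adjusted p = 0.03), fell as well. The groups did not overlap for any of these 5, which were named for passing the test, so this adds no separate support. For comparison with the falls, 13.0% of all genes had the 3 FAC arrays below the 3 untreated ones.

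IGF2BP2, the reported protein partner of RPSAP52 and also a gene that HMGA2 can activate, measured 9.41, 9.57 and 9.46 in FAC replicates 1, 2 and 3, against 9.51, 9.48 and 9.59 in untreated replicates 1, 2 and 3. The groups overlapped, and the log2 fold change was -0.05 ± 0.06 (adjusted p = 0.768). Its relatives IGF2BP1 (0.06 ± 0.06, adjusted p = 0.640) and IGF2BP3 (-0.20 ± 0.07, adjusted p = 0.183) did not pass and lay among the dimmest genes. Of 7 measured genes in the list around IGF2 and its receptors, INSR rose and IGF1R fell, against 3.73% of all genes called, with a median of -0.05. Both also stand in the let-7 target list. At an unadjusted p under 0.05, 1 gene of the IGF2 list was higher and 3 were lower (8.14% and 9.06% of all genes). IGF2 and H19 are not analysed here.

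Of 11 measured genes reported downstream of HMGA2, 2 rose and 1 fell, with a median of 0.01, against 1.88% higher and 1.85% lower among all genes. CCNB2, a mitotic cyclin, averaged 9.78 ± 0.11 in FAC-treated and 9.22 ± 0.12 in untreated cells (0.56 ± 0.08, adjusted p = 0.0122). CCNA2, a cyclin of S phase and mitosis that HMGA2 has been reported to activate, averaged 10.38 ± 0.03 in FAC-treated and 10.07 ± 0.05 in untreated cells (0.31 ± 0.05, adjusted p = 0.0236). JUNB, an AP-1 subunit, fell to 8.78 ± 0.06 in FAC-treated cells, against 9.19 ± 0.10 in untreated cells (-0.40 ± 0.07, adjusted p = 0.0223). PLAG1, a transcription factor gene that HMGA2 activates on the way to IGF2, measured 7.36, 7.36 and 7.07 in the FAC cultures, against 7.54, 7.45 and 7.61 in the untreated ones (-0.27 ± 0.09, adjusted p = 0.174). Its groups did not overlap, but it did not pass. SNAI1, a repressor of epithelial genes, averaged 6.59 ± 0.10 in FAC-treated and 6.87 ± 0.08 in untreated cells (-0.28 ± 0.07, adjusted p = 0.0855). E2F1 was higher and did not pass either, with overlapping groups (0.31 ± 0.10, adjusted p = 0.168). In this list 3 genes were higher and 3 lower at an unadjusted p under 0.05 (8.14% and 9.06% of all genes).

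None of 9 measured mesenchymal transition factors and markers passed the limma test, and 2 were lower at an unadjusted p under 0.05 (9.06% of all genes), SNAI1 and the fibronectin gene FN1 (-0.14 ± 0.05, adjusted p = 0.208). The median of that list was -0.03. On the TGF-beta route, the 5 measured genes held 1 that fell (1.85% of all genes did), the feedback inhibitor SMAD7, at 8.98 ± 0.07 in FAC-treated and 9.56 ± 0.11 in untreated cells (-0.59 ± 0.07, adjusted p = 0.00714). The transducers SMAD2 (0.07 ± 0.06), SMAD3 (-0.10 ± 0.06) and SMAD4 (-0.07 ± 0.05) and the factor SP1 (-0.04 ± 0.05) did not pass, with adjusted p between 0.394 and 0.743. None of them had an unadjusted p under 0.05. The TGF-beta genes and their 2 receptor genes are not analysed here.

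**Figure D4:**
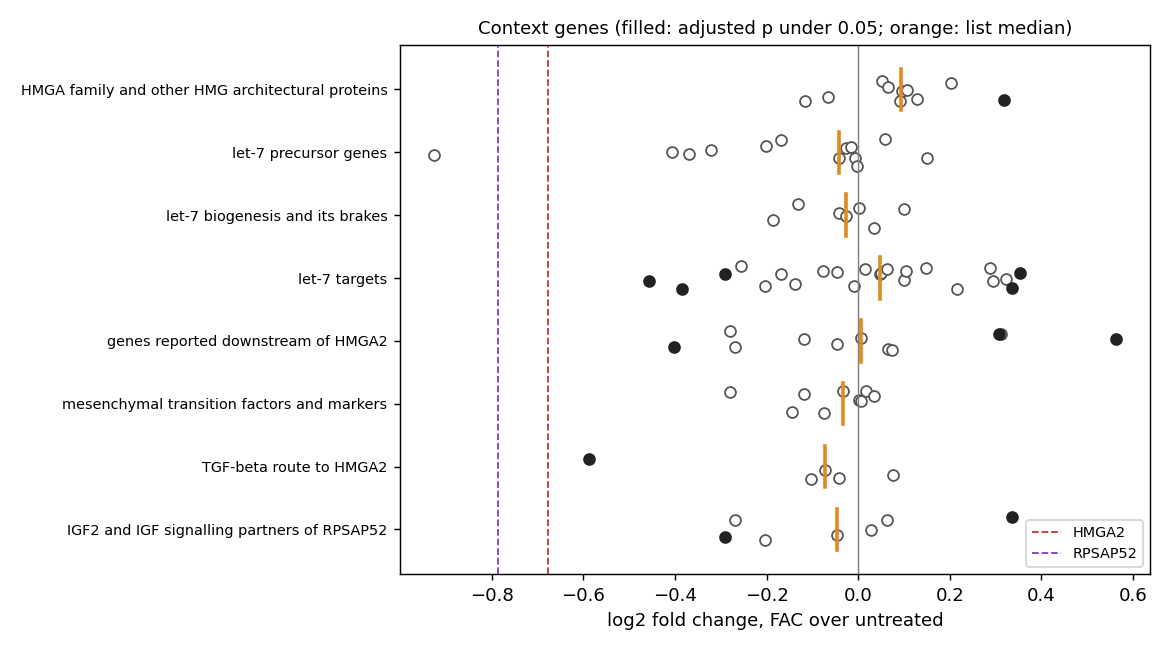
Log2 fold change of FAC over untreated for the measured genes of 8 lists around HMGA2 and RPSAP52; filled points passed the limma test at an adjusted p under 0.05, orange bars are list medians, and vertical dashed lines mark HMGA2 (-0.68) and RPSAP52 (-0.79). Called genes lie on both sides of 0, and MIRLET7A2, at -0.93, is the 1 point left of both dashed lines.

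Over all 8 lists, 10 of 74 measured genes other than the pair (13.5%, against 3.73% of all genes) passed the limma test, 5 higher and 5 lower with FAC, with a median of -0.0056 beside -0.0041 for all genes. The lists were drawn up with earlier results of these data known, so the count describes them and is no independent support. The count fell whenever 1 array was left out. Of the 74, 5 passed without untreated replicate 1, 9 without untreated replicate 2 and 1 without untreated replicate 3. In the same way 1 passed without FAC replicate 1, 4 without FAC replicate 2 and 3 without FAC replicate 3. Fewer arrays were fitted there, and the count over all genes fell too, from 555 to between 147 and 447. SMAD7 passed in all 14 alternatives. IRS2 and CCNB2 lost the call in 4 of them, MYC, IGF1R, CCNA2, JUNB and HMGB2 in 7, CCND2 in 8 and INSR in 9, each with an unchanged sign.

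The genes whose pattern over the 6 arrays was most like that of each member were found by the root mean square difference of log2 values centred on each gene's own mean. For RPSAP52 the closest of all 14883 other genes was HMGA2 (0.125). For HMGA2, RPSAP52 was the fifth among genes that the naming rule admits and stood at rank 7 of all. Ahead of it among admitted genes came FKSG29 (0.0673), the nuclear receptor gene RORA (0.0807), the kinase gene NEK10 (0.111) and the long RNA LINC01239 (0.124). Also ahead, but not admitted, were the microRNA gene MIR4677 (0.0816, rank 3 of all) and HHIP (0.121, rank 5), which lay below the median level. After HMGA2, and among genes that the rule admits, which leaves out microRNA genes such as MIR4677 (0.127, rank 2 of all) and MIR501 (0.138, rank 3), RPSAP52 was closest to RORA (0.142), FKSG29 (0.158), the divergent transcript SMC5-DT (0.169) and LINC01239 (0.190). RORA measured 7.70, 7.85 and 7.71 in FAC replicates 1, 2 and 3, against 8.21, 8.60 and 8.40 in untreated replicates 1, 2 and 3. Like the pair it was lower with FAC and highest in untreated replicate 2. The measure includes the group difference on which the pair was selected, so these genes are named as a description over 6 arrays.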

How the data were processed

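Total RNA from 6 ARPE-19 cultures was amplified with T7 polymerase and the resulting cDNA end-labelled with biotin, per the labels' protocols, with 1 array for each culture. The authors deposited normalized log2 intensity values for 53617 probes, between 2.41 and 14.22. RMA and Partek 6.6 are named, without order or role, in the submitters' processing notes. No detection calls or scan dates were given, so signal over background and scan batches could not be examined, and the number of arrays limits precision. The values were used as deposited. Of all probes 16098 carry 1 gene symbol in the platform annotation. The other 37519 are called unnamed here, and any probe with several symbols would be among them. For 779 genes with more than 1 probe the brightest was taken. No filter on low values was applied.

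The FAC effect was estimated with the lmFit and eBayes functions of limma 3.58.1 (R 4.3.3, 2-sided, Benjamini-Hochberg over 14884 genes, threshold 0.05). The procedure was also run on simulated data with independent normal noise, which do not represent an outlying array or correlated genes. The median SE was 0.07. The members and all 12 gene lists were chosen with earlier results of these data known. Genes were named by a written rule: members of each list past the threshold (at most 6) or the 2 with the smallest p, all let-7 genes, RPSA relatives, 5 neighbours on each side of HMGA2, and the 5 genes closest in pattern among those at or above the median level, without uncharacterised loci and small RNA genes. OTX2, RPE65, BEST1, TYR, TYRP1, PMEL, PLAG1, E2F1, SP1 and the IGF2BP and SMAD genes other than SMAD7 fall outside it and were named after their values were seen. Alternatives were a filter on dim genes, quantile normalization, median centring, a trended robust prior, array weights, averaged probes, every probe, a replicate block and leaving out each array. Sequences came from RefSeq (GRCh38.p14).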

Additional observations from a re-analysis of the deposited data

How the results depend on the processing

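The falls of HMGA2 and RPSAP52 were negative in all 14 alternatives, but not all of these could alter them. The dim-gene filter, the trended robust prior, averaged probes, every probe and the replicate block returned the same log2 fold changes by construction. Each gene had 1 probe, and replicate numbers were balanced over the groups. In the other alternatives the falls moved by less than the SD pooled over both groups (0.222 and 0.251). They were -0.64 and -0.76 with quantile normalization, -0.69 and -0.80 with median centring, and -0.65 and -0.80 with array weights. The count of 555 called genes became 840 of 9923 without the dimmest 33.3% of genes, 1026 with a trended and robust prior, and 254 of 53617 when every probe was tested. It lay between 147 (without FAC replicate 1) and 447 (without untreated replicate 2) when 1 array was left out. The 10 called genes around the pair became 16 with the trended prior and 1 when every probe was tested, and between 1 and 9 without 1 array. Fewer arrays, or more probes to adjust over, were tested there by construction. With the replicate number as a block, 184 genes and 1 of the 74 passed. Same-numbered arrays did not deviate together (correlations of -0.02, -0.03 and -0.15 over genes). The labels give no pairing beyond the number, and with 3 arrays a group these correlations cannot exclude a shared day or batch. Of 101 named genes without a call, 12 passed in at least 1 alternative, and none of the 116 changed sign while called. TYRP1 was among the 12 (-0.49, adjusted p = 0.0254 without untreated replicate 2). With 3 arrays a group and no detection calls, changes of dim genes such as LIN28A, LIN28B and 5 of the 11 let-7 hairpin genes are poorly bounded.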
